A study of Mus musculus with 18 samples.

Results

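Promoter accessibility was examined at the genes of the G-protein-coupled receptors for the brain's main excitatory and inhibitory transmitters. The genes were 7 metabotropic glutamate receptor genes (Grm2, Grm3, Grm4, Grm5, Grm6, Grm7 and Grm8) and the 2 GABA-B receptor genes (Gabbr1 and Gabbr2). They were chosen by name, and every deposited promoter window of that name was taken. This gave 10 windows of 26065, since Grm8 had 2 windows and each of the other genes had 1. All 10 spanned 2000 bases, so their levels can be compared per length, and all 10 passed the filter on low counts in every fit. No window of another gene overlapped them.

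Metabotropic glutamate receptors are dimeric receptors that bind glutamate in a large outer domain and signal through G proteins. Grm5 encodes mGlu5, a group I receptor, which couples to Gq and phospholipase C and sits mostly on the receiving side of the synapse. Grm2 and Grm3 encode the group II receptors, and Grm4, Grm6, Grm7 and Grm8 the group III receptors. Both of these groups couple to Gi/o, lower cyclic AMP, and in many synapses reduce transmitter release. The GABA-B receptor is an obligate heterodimer in which the Gabbr1 product binds GABA and the Gabbr2 product couples to the G protein. Receptors of both families are known to tune synapses of the amygdala and cortex, and several have been studied in fear learning.

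ATAC-seq, in which the Tn5 transposase cuts and tags open DNA, had been run on sorted mouse nuclei from the central amygdala (CeA) and from the prefrontal cortex. All mice were C57BL/6J and 2 to 3 months old, and each of the 18 libraries held 50000 nuclei. SOM+ nuclei, gated on a nuclear H2B-GFP of somatostatin cells and labelled WT, came from fear-conditioned and control mice, with 2 libraries for each condition and region. Bulk nuclei, sorted with a DNA stain in place of the GFP gate and labelled Control for treatment, came from mice with Erbb4 knocked out in SOM+ cells (KO, 3 libraries per region) and from wild-type mice (WT, 2 libraries per region). In the KO groups only the SOM+ cells among the sorted nuclei could carry the deletion. The sort was described as giving technical replicates. In each SOM+ group, however, replicate 1 was labelled male and replicate 2 female. Reads at Y-linked promoters (815 to 1232 against 0) went with these labels, so these replicates came from different mice. Such reads also set KO replicate 2 (0) apart from KO replicates 1 and 3 (375 to 639). Other bulk replicates may not be separate mice, and p-values then measure only the spread between these libraries. SOM+ and bulk groups differ in the sort and in the GFP label at once, and the effects of these cannot be told apart. In either kind of sample, a promoter open in more of the nuclei and a promoter more open in each nucleus cannot be told apart.

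Of the bulk libraries, 4 went against their labelled sex at the Y-linked promoters of Eif2s3y, Uty and Ddx3y. KO replicate 2 of both regions was labelled male and had 0 reads there, and WT replicate 1 of both regions was labelled female and had 243 reads (CeA) and 627 reads (cortex). Whether the sex entry or another label of these libraries is at fault cannot be told apart. The SOM+ against bulk and bulk region results are therefore also given without them. WT replicate 2 is then the only bulk WT library of each region, so the WT side of those results rests on it alone. WT was read from the sample titles, because the genotype entry of the bulk WT libraries names the KO. The start-site window of Erbb4 does not report on a deletion elsewhere in the gene; it averaged 33.8 ± 5.45 CPM in KO and 36.3 ± 1.62 CPM in WT CeA, and 34.6 ± 7.84 CPM in KO and 39.7 ± 8.64 CPM in WT cortex (SD, n = 3 and 2). Promoter counts per library ranged from 2648959 to 14668694. Promoter enrichment, here the ratio of the median ribosomal protein promoter to the median olfactory receptor promoter, was 17.4 to 35.3 in SOM+ CeA, 53.8 to 73.5 in SOM+ cortex, 10.2 to 18.9 in bulk CeA and 9.57 to 14.0 in bulk cortex. Counts were highest in SOM+ cortex (9452310 to 14668694) and overlapped among the other 3 kinds of sample, where the highest was 7939962. Enrichment was higher in SOM+ than in bulk cortex and lower in SOM+ CeA than in SOM+ cortex.

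The summed level of 9 GABAergic neuron marker promoters was 572 to 673 CPM in SOM+ CeA, 719 to 789 CPM in SOM+ cortex, 418 to 617 CPM in bulk CeA and 189 to 209 CPM in bulk cortex. The sum of 10 glutamatergic neuron markers was 184 to 199 CPM in SOM+ CeA, 178 to 225 CPM in SOM+ cortex, 231 to 298 CPM in bulk CeA and 514 to 667 CPM in bulk cortex. Marker sums of astrocytes (113 to 167 CPM) and oligodendrocytes (127 to 148 CPM) were lower in all 8 SOM+ libraries than in all 10 bulk libraries (209 to 338 CPM and 238 to 369 CPM). No marker stood at 0 in any library, and the Sst promoter averaged 18.2 CPM in both SOM+ control and bulk WT libraries (SD 6.19 and 3.75, n = 4 each; edgeR log2 difference 0.03 ± 0.23 SE, adjusted p = 0.926).

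Promoter sequences in RefSeq (GRCm38.p6, 250 bases before to 50 bases after a start) were found for 7 of the 9 genes; Grm4 and Grm5 had none in the table used. The 4 promoters below belong to the pairs that the results turn on, the group II receptors Grm2 and Grm3 and the GABA-B partners Gabbr1 and Gabbr2. They lie at chr9:106656060-106656359 (minus strand), chr5:9725303-9725602 (minus strand), chr17:37045716-37046015 (plus strand) and chr4:46991665-46991964 (minus strand) in that order. They are written 5′ to 3′ along the gene, with capitals at each GGGCGG (the core of a GC box, the site bound by SP1) read on either strand.
Grm2: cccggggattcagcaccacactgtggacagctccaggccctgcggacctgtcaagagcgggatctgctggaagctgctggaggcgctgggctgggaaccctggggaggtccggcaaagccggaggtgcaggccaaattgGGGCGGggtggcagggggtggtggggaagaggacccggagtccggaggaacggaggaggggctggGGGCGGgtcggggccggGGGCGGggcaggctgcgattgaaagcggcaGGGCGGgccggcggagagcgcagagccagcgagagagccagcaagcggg
Grm3: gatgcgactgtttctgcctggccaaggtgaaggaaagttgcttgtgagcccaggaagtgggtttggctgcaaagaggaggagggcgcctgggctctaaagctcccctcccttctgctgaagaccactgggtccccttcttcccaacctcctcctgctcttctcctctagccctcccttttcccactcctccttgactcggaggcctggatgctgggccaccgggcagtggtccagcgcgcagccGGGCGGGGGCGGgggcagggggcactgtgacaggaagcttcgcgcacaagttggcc
Gabbr1: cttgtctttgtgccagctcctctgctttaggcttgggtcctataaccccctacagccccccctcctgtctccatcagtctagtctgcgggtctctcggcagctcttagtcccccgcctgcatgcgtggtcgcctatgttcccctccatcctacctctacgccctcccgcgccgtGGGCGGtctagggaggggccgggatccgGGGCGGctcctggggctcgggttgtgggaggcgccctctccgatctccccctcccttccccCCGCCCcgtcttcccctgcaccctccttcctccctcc
Gabbr2: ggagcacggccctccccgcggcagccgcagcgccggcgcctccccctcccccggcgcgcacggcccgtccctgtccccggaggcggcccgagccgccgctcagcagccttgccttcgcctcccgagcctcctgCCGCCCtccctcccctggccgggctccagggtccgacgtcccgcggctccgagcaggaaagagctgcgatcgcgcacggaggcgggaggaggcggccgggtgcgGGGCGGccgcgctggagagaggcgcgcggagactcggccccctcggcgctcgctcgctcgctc

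Grm2 held 4 GC box cores, Gabbr1 held 3, and Grm3 and Gabbr2 held 2 each; the 2 of Grm3 stand end to end. The same core, searched on both strands, was present in 35.7% of 32851 mouse promoters of this length. The Gabbr2 promoter was 80.3% G and C with 46 CpG, and its CpG frequency was 0.96 of that expected from its base composition. Grm3 had 63.7% G and C, 11 CpG and a ratio of 0.36, close to the median ratio of 0.38 over all promoters. Grm2 (22 CpG, ratio 0.64) and Gabbr1 (18 CpG, ratio 0.57) lay between them. The cyclic AMP response element TGACGTCA, which is its own reverse complement, was in none of the 10 promoters of the 7 genes and in 1.79% of all promoters. The AP-1 motif TGANTCA was in 1 of the 10, at a Grm8 start, and in 7.81% of all promoters. A match describes letters in this window only, and the windows that were counted are in the older build mm9.

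The receptor promoters differed widely in openness. Over all 18 libraries the mean level, in CPM (promoter counts scaled to library size with TMM factors), was 96.4 CPM at Grm3, which exceeded 89.5% of all tested windows. Gabbr2 (71.3 CPM) and Grm7 (70.5 CPM) followed at about the 80.6th and 80.3rd percentile. The upstream Grm8 window (42.8 CPM), Gabbr1 (41.9 CPM), Grm5 (33.7 CPM) and Grm2 (22.3 CPM) were intermediate. Grm6 (12.0 CPM), Grm4 (8.61 CPM) and the downstream Grm8 window (6.72 CPM) were lowest, against library medians of 1.18 to 5.14 CPM at olfactory receptor promoters, which are closed in brain. Neighbours in this order (Gabbr2 and Grm7, the upstream Grm8 window and Gabbr1) had library values that overlapped. The counts behind single values ran from 14 reads at Grm4 to 1163 reads at Grm3, so that the lowest windows carry the largest counting error.

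**Figure D1:**
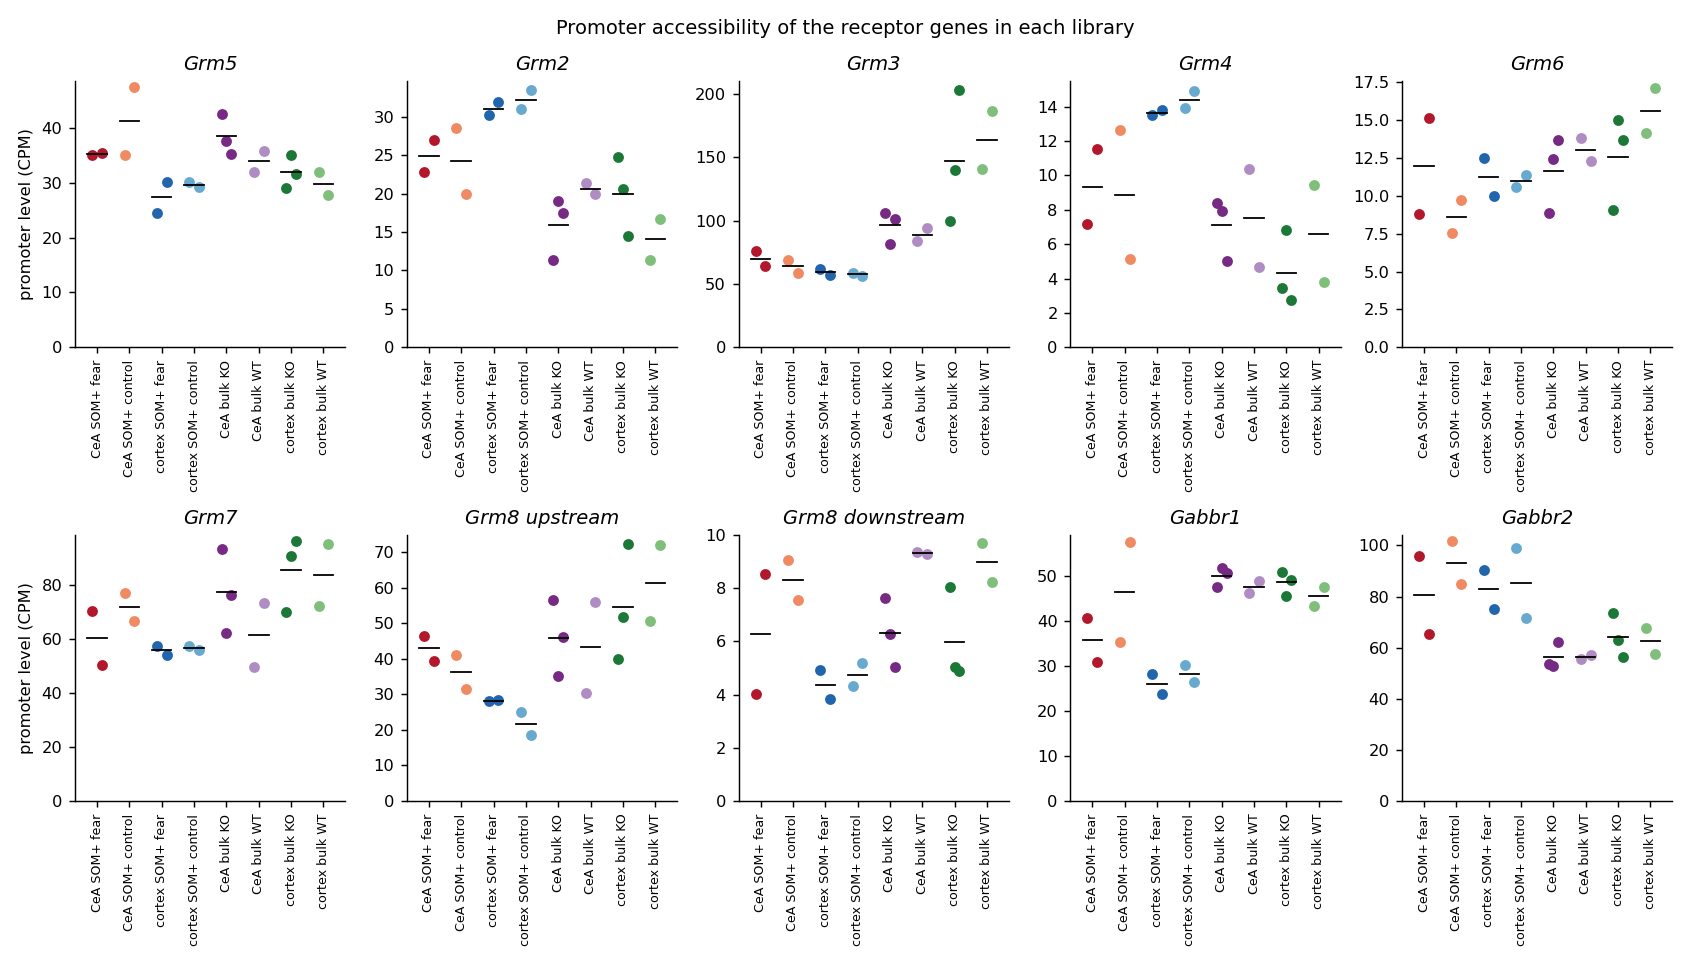
Promoter level in TMM-scaled CPM (vertical axis, from 0) of each receptor window in every library, with 1 panel per window. Points are libraries, bars are group means, and groups run from SOM+ to bulk with fear before control and KO before WT; Grm3 reaches 203 CPM in bulk cortex and stays at or below 76.0 CPM in all SOM+ libraries.

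The group II pair moved in opposite directions between SOM+ and bulk nuclei of the cortex. Grm3, whose receptor is found on astrocytes as well as on neurons, was at 59.0 and 56.6 CPM in SOM+ control cortex, against 140.5 and 186 CPM in bulk WT cortex (mm9 chr5:9724353-9726352). Both SOM+ values were below both bulk values, and the difference was called (edgeR quasi-likelihood test, log2 fold change -1.49 ± 0.22 SE, Benjamini-Hochberg adjusted p = 3.77e-07). Without the 4 libraries that went against their labelled sex it was -1.68. Grm2, which encodes a neuronal autoreceptor that limits glutamate release, had 30.9 and 33.5 CPM in SOM+ control cortex and 11.4 and 16.7 CPM in bulk WT cortex (mm9 chr9:106557441-106559440). Here the SOM+ values were the higher ones (log2 fold change 1.22 ± 0.28 SE, edgeR adjusted p = 2.22e-04, and 0.89 with adjusted p = 0.0517 without the 4 libraries that went against their labelled sex).

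These calls stand against a broad background, because 62.1% of the 25246 windows tested were called between SOM+ control and bulk WT cortex (31.5% higher and 30.6% lower in SOM+). Of the 10 receptor windows, 2 rose and 5 fell in SOM+ cortex, a share near that background. Library values did not overlap for 9 of the 10, against 80.8% of all windows. The median log2 fold change was -0.53 over the 10 windows and -0.07 over all windows. Enrichment moved with this comparison, as did GABAergic, glutamatergic, astrocyte, oligodendrocyte and vascular marker levels. GABAergic sums were 744 to 778 CPM in SOM+ control cortex and 189 to 203 CPM in bulk WT cortex. The part of these in the receptor differences was not tested.

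In the CeA the same pair did not pass the test. Grm3 was at 68.7 and 59.0 CPM in SOM+ control CeA and at 83.7 and 93.8 CPM in bulk WT CeA (log2 fold change -0.48 ± 0.23 SE, edgeR adjusted p = 0.123). It was called lower there with scaling by total counts (-0.63, adjusted p = 0.00835) and with limma on cyclic loess values (-0.72, adjusted p = 0.00298). Grm2 was at 28.6 and 19.9 CPM in SOM+ control CeA and at 21.4 and 19.9 CPM in bulk WT CeA, with overlapping values (log2 fold change 0.24 ± 0.28 SE, edgeR adjusted p = 0.576). The difference between the regions was itself tested as an interaction, CeA effect minus cortex effect. It was called for Grm3 (1.01 ± 0.32 SE, edgeR adjusted p = 0.0169; 0.88 to 1.20 over the alternatives) and not for Grm2 (-0.98 ± 0.39 SE, adjusted p = 0.0621). The Grm2 interaction was called with only the groups compared (-1.05, adjusted p = 0.0167), without SOM+ control CeA replicate 1 (-1.27, 0.0495) and without bulk WT cortex replicate 2 (-1.26, 0.0465). The Grm3 interaction was lost without the 4 libraries that went against their labelled sex (adjusted p = 0.0660). It was also lost without SOM+ control CeA replicate 1 (0.0573) or 2 (0.0503), SOM+ control cortex replicate 1 (0.0820), bulk WT CeA replicate 2 (0.0680) or bulk WT cortex replicate 2 (0.0772).

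Averaged over the regions, Grm2 was 1.66-fold higher and Grm3 was 0.506 times as high in SOM+ control as in bulk WT nuclei (edgeR adjusted p = 0.00155 and 1.49e-06, 4 against 4 libraries). The Grm3 call was kept in all 18 alternative analyses, and the Grm2 call in 17 (lost without the 4 libraries that went against their labelled sex, 0.59, adjusted p = 0.0801). As a description chosen after the values were seen, the ratio of the Grm2 to the Grm3 level within a library was 0.300 to 0.593 (median 0.457) in the 8 SOM+ libraries and 0.071 to 0.255 (median 0.160) in the 10 bulk libraries. Every SOM+ library had a higher ratio than every bulk library. A ratio within a library does not depend on the scaling of that library, and shows an unequal change of the pair without saying which of them changed.

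**Figure D2:**
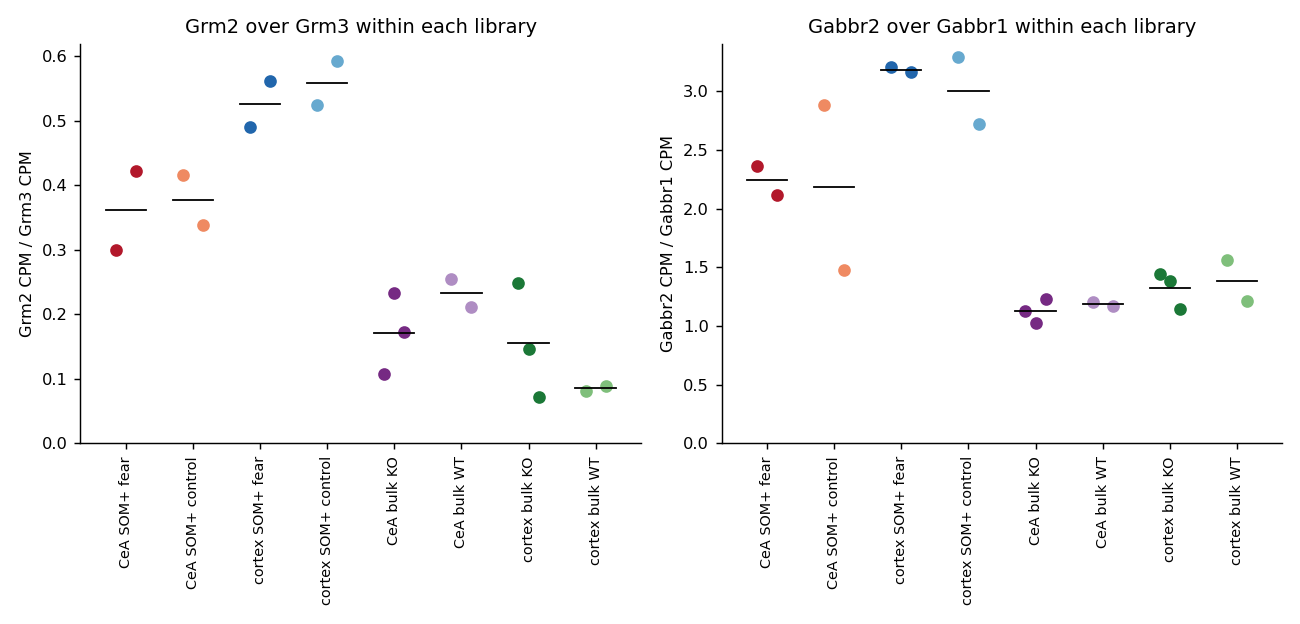
Ratio of CPM levels within each library (vertical axes, from 0, no unit) for Grm2 over Grm3 and for Gabbr2 over Gabbr1, with points for libraries and bars for group means. Grm2 over Grm3 is 0.300 or more in all SOM+ libraries and 0.255 or less in all bulk libraries; Gabbr2 over Gabbr1 is 1.48 to 3.29 in SOM+ and 1.03 to 1.56 in bulk libraries.

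The GABA-B partners were also unequal. Gabbr2 was at 102 and 84.9 CPM in SOM+ control CeA, against 55.7 and 57.0 CPM in bulk WT CeA (mm9 chr4:47003587-47005586). Both SOM+ values were above both bulk values, and Gabbr2 was the only receptor window called in the CeA (log2 fold change 0.71 ± 0.20 SE, edgeR adjusted p = 0.00890), where 23.2% of 25246 windows were called (13.7% higher and 9.58% lower in SOM+). Library values did not overlap for 4 of the 10 receptor windows there, against 62.4% of all windows. Enrichment was 23.8 to 33.4 in SOM+ control CeA and 10.2 to 14.8 in bulk WT CeA. GABAergic sums were higher in SOM+ control (581 to 673 CPM against 418 to 463 CPM). Glutamatergic, astrocyte and oligodendrocyte sums were lower in both SOM+ control libraries than in both bulk WT libraries. The part of these in the Gabbr2 difference was not tested. The Gabbr2 call was lost in 6 of 14 alternatives. Among them were scaling by total counts (0.56, edgeR adjusted p = 0.0508) and cyclic loess (0.46, limma adjusted p = 0.0900). The fit without the 4 libraries that went against their labelled sex (0.89) was another. It was also lost without SOM+ control CeA replicate 1 (adjusted p = 0.0671), SOM+ control CeA replicate 2 (0.0501) or bulk WT CeA replicate 2 (0.135). In the cortex Gabbr2 was at 99.0 and 71.7 CPM in SOM+ control and at 67.6 and 57.6 CPM in bulk WT nuclei. It did not pass the test (log2 fold change 0.42 ± 0.20 SE, edgeR adjusted p = 0.0622), but was called in 6 of 14 alternatives. Over these 14 its log2 fold change was 0.05 to 0.71. It was 0.67 without the 4 libraries that went against their labelled sex.

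Gabbr1 lay on the other side. It was at 30.1 and 26.3 CPM in SOM+ control cortex and at 43.3 and 47.5 CPM in bulk WT cortex (mm9 chr17:37181911-37183910; log2 fold change -0.68 ± 0.21 SE, edgeR adjusted p = 0.00547). The SOM+ values were all lower, and the call was lost without SOM+ control cortex replicate 2 (-0.60). The log2 fold change was -0.81 without the 4 libraries that went against their labelled sex. In the CeA it was at 35.2 and 57.4 CPM in SOM+ control and at 46.2 and 48.7 CPM in bulk WT nuclei, so that the bulk values lay between the SOM+ values (log2 fold change -0.05 ± 0.22 SE, edgeR adjusted p = 0.885). Averaged over regions, Gabbr2 rose (0.57 ± 0.14 SE, edgeR adjusted p = 7.14e-04) and Gabbr1 fell (-0.37 ± 0.15 SE, adjusted p = 0.0340) in SOM+ relative to bulk nuclei. The first of these was lost only with cyclic loess (0.26, adjusted p = 0.115), the second in 9 of 18 alternatives, with log2 fold changes of -0.76 to -0.16, the smallest without SOM+ control CeA replicate 1 (adjusted p = 0.400). Without the 4 libraries that went against their labelled sex, Gabbr2 was called (0.78, adjusted p = 0.00256) and Gabbr1 was not (-0.45, adjusted p = 0.110). Within single libraries the Gabbr2 to Gabbr1 ratio was 1.48 to 3.29 in SOM+ and 1.03 to 1.56 in bulk nuclei; the ranges overlapped through SOM+ control CeA replicate 2, the lowest of the SOM+ libraries.

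Among group III genes, Grm8, whose receptor has a high affinity for glutamate and acts at terminals, had the steepest difference. The start-site window on the upstream side (mm9 chr6:28083370-28085369) was at 25.0 and 18.5 CPM in SOM+ control cortex and at 50.7 and 72.2 CPM in bulk WT cortex. Both SOM+ values were below both bulk values (log2 fold change -1.49 ± 0.24 SE, edgeR adjusted p = 1.41e-06, called in all 14 alternatives). The log2 fold change was -1.68 without the 4 libraries that went against their labelled sex. In the CeA it was at 41.1 and 31.5 CPM in SOM+ control and at 30.4 and 56.0 CPM in bulk WT nuclei, where the groups overlapped (-0.21 ± 0.25 SE, adjusted p = 0.576). The interaction with region was called (1.28 ± 0.34 SE, edgeR adjusted p = 0.00529), but not without the 4 libraries that went against their labelled sex (1.17, adjusted p = 0.0709) or without bulk WT CeA replicate 1 (1.02, adjusted p = 0.0605).

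The second Grm8 window (mm9 chr6:28075427-28077426) starts 7943 bases downstream along the gene and was much less open. It was at 4.31 and 5.20 CPM in SOM+ control cortex and at 9.72 and 8.23 CPM in bulk WT cortex (log2 fold change -0.92 ± 0.40 SE, edgeR adjusted p = 0.0450). The call rested on 39 to 64 reads per library and was lost in 8 of 14 alternatives, with each of the 4 cortex libraries left out, and the 4 libraries that went against their labelled sex left out together (-0.94, adjusted p = 0.165), among them. The upstream window was 3.25 to 14.8 times as open as the downstream one, whichever the library. Olfactory receptor medians were also lower in SOM+ control (1.18 to 1.35 CPM) than in bulk WT cortex (3.38 to 4.56 CPM). Their part in the difference at the downstream window was not tested.

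Grm7, whose product has a low affinity for glutamate and sits in the release zone of terminals, was at 57.4 and 56.0 CPM in SOM+ control cortex and at 72.3 and 95.4 CPM in bulk WT cortex (mm9 chr6:110594592-110596591). It fell there (log2 fold change -0.55 ± 0.20 SE, edgeR adjusted p = 0.0185), although not without SOM+ control cortex replicate 1 (-0.40, adjusted p = 0.205) or bulk WT cortex replicate 2 (-0.48, adjusted p = 0.116), with a replicate block (-0.37, adjusted p = 0.182) or with sex read from the Y-linked promoters (-0.47, adjusted p = 0.0685). Without the 4 libraries that went against their labelled sex it was -0.72, with bulk WT replicate 2 as the only bulk WT cortex library. In the CeA it was at 77.1 and 66.8 CPM in SOM+ control and at 49.8 and 73.3 CPM in bulk WT nuclei, and the groups overlapped (0.25 ± 0.21 SE, adjusted p = 0.416). The interaction was called (0.79 ± 0.29 SE, edgeR adjusted p = 0.0416) and lost in 11 of 18 alternatives, with each of the 8 libraries left out, and the 4 libraries that went against their labelled sex left out together (0.79, adjusted p = 0.182), among them. Across all windows 24.7% had a called interaction (9.46% positive and 15.2% negative), against Grm3, Grm7 and the upstream window of Grm8 among the 10 receptor windows.

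Grm4, best known from cerebellar terminals, went the other way from Grm7 and Grm8. It was at 13.9 and 14.9 CPM in SOM+ control cortex and at 9.41 and 3.80 CPM in bulk WT cortex (mm9 chr17:27639479-27641478), higher in both SOM+ libraries (log2 fold change 1.13 ± 0.42 SE, edgeR adjusted p = 0.0188). The lower bulk value, of WT replicate 2, was near the olfactory receptor median of that library (3.38 CPM). The call was lost in 5 of 14 alternatives, including scaling by total counts (0.89, adjusted p = 0.110). Leaving out 1 library also ended it: SOM+ control cortex replicate 1 (1.02, adjusted p = 0.0922), replicate 2 (1.25, adjusted p = 0.0514) or bulk WT cortex replicate 2 (0.67, adjusted p = 0.270). Without the 4 libraries that went against their labelled sex the log2 fold change was 1.89. Bulk WT replicate 2, the lower bulk value, was then the only bulk WT cortex library. In the CeA Grm4 was at 12.6 and 5.12 CPM in SOM+ control and at 10.4 and 4.64 CPM in bulk WT nuclei, a spread within each group wider than the gap between them.

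Grm6, whose receptor is the glutamate sensor of ON bipolar cells in the retina, had low levels throughout. Olfactory receptor medians were lower in SOM+ control than in bulk WT nuclei of each region, and their part in the Grm6 differences was not tested. Grm6 was at 7.53 and 9.70 CPM in SOM+ control and at 13.8 and 12.3 CPM in bulk WT CeA, and at 10.6 and 11.3 CPM in SOM+ control and 14.1 and 17.1 CPM in bulk WT cortex (mm9 chr11:50663187-50665186). The SOM+ values were the lower ones in both regions, but only the average over regions was called (log2 fold change -0.56 ± 0.23 SE, edgeR adjusted p = 0.0338), and this in 9 of 18 alternatives, not among them the fit without the 4 libraries that went against their labelled sex (-0.72, adjusted p = 0.0788). Grm5, the group I gene, had the smallest SD of log2 level of the 10 windows (0.22), with 24.6 to 47.4 CPM over the 18 libraries (mm9 chr7:94731678-94733677). It had 30.2 and 29.2 CPM in SOM+ control cortex and 31.9 and 27.8 CPM in bulk WT cortex, and its log2 fold change was -0.01 ± 0.21 SE (edgeR adjusted p = 0.985). With cyclic loess it was called lower in SOM+ cortex (-0.55, adjusted p = 0.0210).

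**Figure D3:**
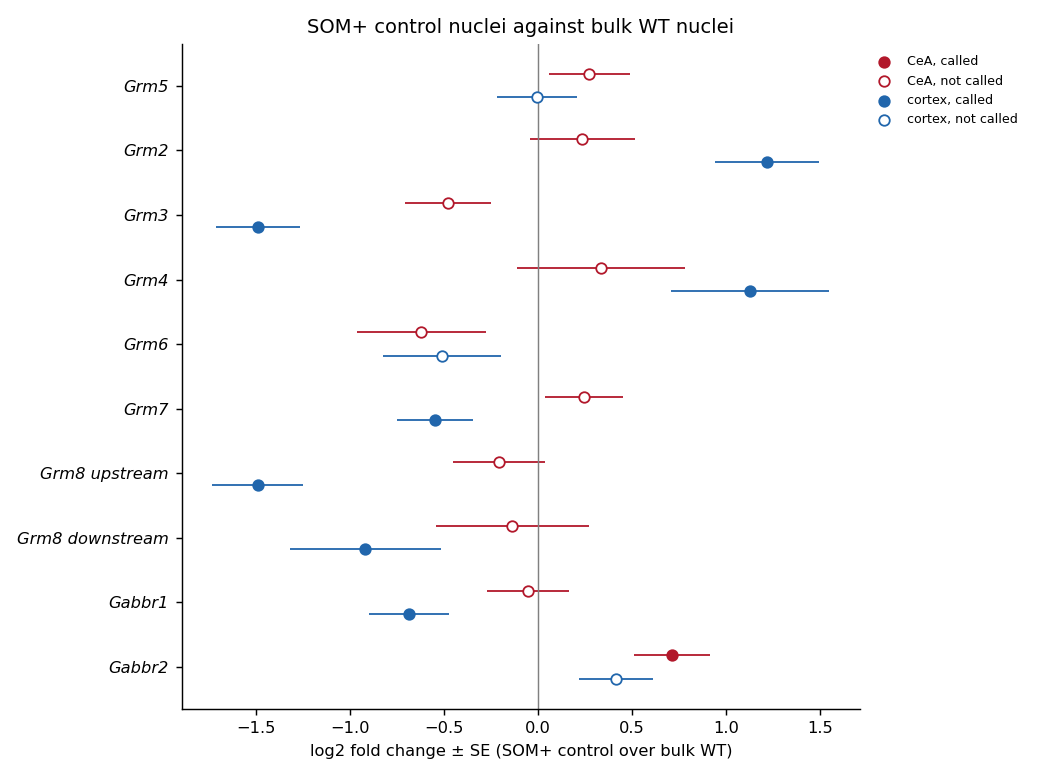
Log2 fold change of promoter level (horizontal axis, SOM+ control over bulk WT) with its standard error for each receptor window (vertical axis), in CeA and in cortex, each from 2 against 2 libraries. Filled circles passed an adjusted p of 0.05; in cortex Grm2 and Grm4 lie to the right at 1.22 and 1.13, Grm3 and the upstream Grm8 window to the left at -1.49 each, and in CeA Gabbr2 alone is filled.

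Averaged over regions, 61.1% of all windows were called between SOM+ control and bulk WT nuclei, against 3 receptor windows that rose (Grm2, Grm4 and Gabbr2) and 4 that fell (Grm3, Grm6, the upstream window of Grm8 and Gabbr1). The Grm4 call (0.73 ± 0.31 SE, edgeR adjusted p = 0.0385) was lost in 9 of 18 alternatives, and its log2 fold change was 0.19 without SOM+ control CeA replicate 1 (adjusted p = 0.661). The higher and the lower calls made up 30.6% of all windows each. Library values did not overlap for 3 of the 10, Grm3, Grm6 and Gabbr2, against 38.2% of all windows. Scaling by total counts moved the median of all windows in this comparison to -0.27, against -0.07 with TMM scaling. No called receptor window changed sign with any of the scalings tried. Without the 4 libraries that went against their labelled sex, 4 receptor windows were called in this average, and 0 in the CeA alone and in the interaction.

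Between the 2 regions, SOM+ nuclei of the CeA had more open promoters at Gabbr1, Grm5 and Grm8 and a less open one at Grm4 than SOM+ nuclei of the cortex. The upstream Grm8 window was at 46.4 and 39.5 CPM in fear and 41.1 and 31.5 CPM in control CeA, against 28.2 and 28.4 CPM in fear and 25.0 and 18.5 CPM in control cortex. All 4 CeA libraries were above all 4 cortex libraries (log2 fold change 0.72 ± 0.15 SE, edgeR adjusted p = 1.66e-05). The downstream Grm8 window rose too (0.68 ± 0.29 SE, adjusted p = 0.0418), with overlapping libraries and a call that was lost in 8 of 15 alternatives, with any of the 4 cortex libraries left out (adjusted p = 0.0508 to 0.108) and with fear CeA replicate 2 (0.42, 0.241) or control CeA replicate 1 (0.64, 0.128) left out among them.

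Gabbr1 was at 40.5 and 30.9 CPM in fear and 35.2 and 57.4 CPM in control CeA, against 28.2 and 23.8 CPM in fear and 30.1 and 26.3 CPM in control cortex. Every CeA library was above every cortex library (log2 fold change 0.63 ± 0.15 SE, edgeR adjusted p = 1.87e-04). Its partner Gabbr2 averaged 87.0 ± 16.0 CPM in SOM+ CeA and 84.1 ± 12.9 CPM in SOM+ cortex (SD, n = 4 each), and did not pass the test (0.10 ± 0.15 SE, adjusted p = 0.610). Gabbr2 was called with scaling by total counts (0.31, adjusted p = 0.0378) and with cyclic loess (0.37, adjusted p = 0.0197).

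Grm5 was at 35.0 and 35.5 CPM in fear and 35.1 and 47.4 CPM in control CeA, against 24.6 and 30.2 CPM in fear and 30.2 and 29.2 CPM in control cortex. The regions did not overlap (log2 fold change 0.46 ± 0.15 SE, edgeR adjusted p = 0.00758), and the call was lost only without fear cortex replicate 1 (0.39, adjusted p = 0.0637). Grm4 averaged 9.10 ± 3.56 CPM in SOM+ CeA and 14.0 ± 0.60 CPM in SOM+ cortex (SD, n = 4 each; log2 fold change -0.56 ± 0.21 SE, edgeR adjusted p = 0.0188). Its call was lost in 8 of 15 alternatives, among them scaling by total counts (-0.33, adjusted p = 0.266) and leaving out control CeA replicate 2 (-0.27, adjusted p = 0.350), fear CeA replicate 1 (-0.39, 0.194), control cortex replicate 1 (-0.51, 0.0824) or 2 (-0.46, 0.129), or fear cortex replicate 2 (-0.47, 0.112). Grm2 was lower in every CeA than in every cortex library but was not called (-0.31 ± 0.16 SE, edgeR adjusted p = 0.0925). Grm3 and Grm7 did not pass (0.24 ± 0.15 and 0.28 ± 0.15 SE, edgeR adjusted p = 0.160 and 0.0984), but both were called with scaling by total counts (0.46 and 0.50, adjusted p = 0.00158 and 8.76e-04), without the filter on low counts (0.32 and 0.35), with cyclic loess (0.50 and 0.53), and without control CeA replicate 2 (0.37 and 0.40, adjusted p = 0.0241 and 0.0128) or fear CeA replicate 2 (0.32 and 0.41).

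In the same comparison 48.3% of 25157 windows were called, 21.1% higher and 27.1% lower in CeA, so that 5 of 10 receptor windows is near the background. Scaling by total counts moved the share of calls that were higher in CeA to 61.5%, against 43.8% with TMM, and the median of all windows to 0.26, against 0.04. The calls of Gabbr1 and the upstream window of Grm8 held in all 15 alternatives. Enrichment, depth and GABAergic marker sums were lower in every SOM+ CeA library than in every SOM+ cortex library. Sums of 10 vascular markers were higher in SOM+ CeA (71.7 to 91.6 CPM against 66.1 to 70.7 CPM). The part of these in the region differences was not tested.

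In bulk nuclei the regions differed at Grm3 alone. Grm3 was at 81.9 to 106 CPM (median 93.8) in the 5 CeA libraries and at 99.7 to 203 CPM (median 140.5) in the 5 cortex libraries. The ranges met at cortex KO replicate 1, which had the lowest cortex value (log2 fold change -0.72 ± 0.16 SE, edgeR adjusted p = 0.00516). The call was lost without the 4 libraries that went against their labelled sex (-0.72, adjusted p = 0.230), and also without CeA WT replicate 1 (-0.75, 0.0573), CeA WT replicate 2 (-0.72, 0.113) or cortex WT replicate 2 (-0.69, 0.0970). Of all 25196 windows 16.9% were called, 6.90% higher and 9.98% lower in CeA. Library values overlapped at all 10 receptor windows, while 10.1% of all windows had no overlap. The upstream Grm8 window averaged 44.9 ± 11.9 CPM in bulk CeA and 57.4 ± 14.3 CPM in bulk cortex (SD, n = 5 each), and did not pass the test (-0.38 ± 0.16 SE, adjusted p = 0.108). Without cortex KO replicate 1, Grm3, Grm7 and the upstream window of Grm8 were called lower in CeA (-0.34 with adjusted p = 0.0440 for Grm7 and -0.46 with adjusted p = 0.0188 for Grm8). Glutamatergic, astrocyte and oligodendrocyte marker sums were lower, and GABAergic sums higher, in every bulk CeA library than in every bulk cortex library. Astrocyte sums were 209 to 240 CPM in bulk CeA and 250 to 338 CPM in bulk cortex. Oligodendrocyte sums were 238 to 255 CPM and 257 to 369 CPM in that order. The part of these in the Grm3 difference was not tested.

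**Figure D4:**
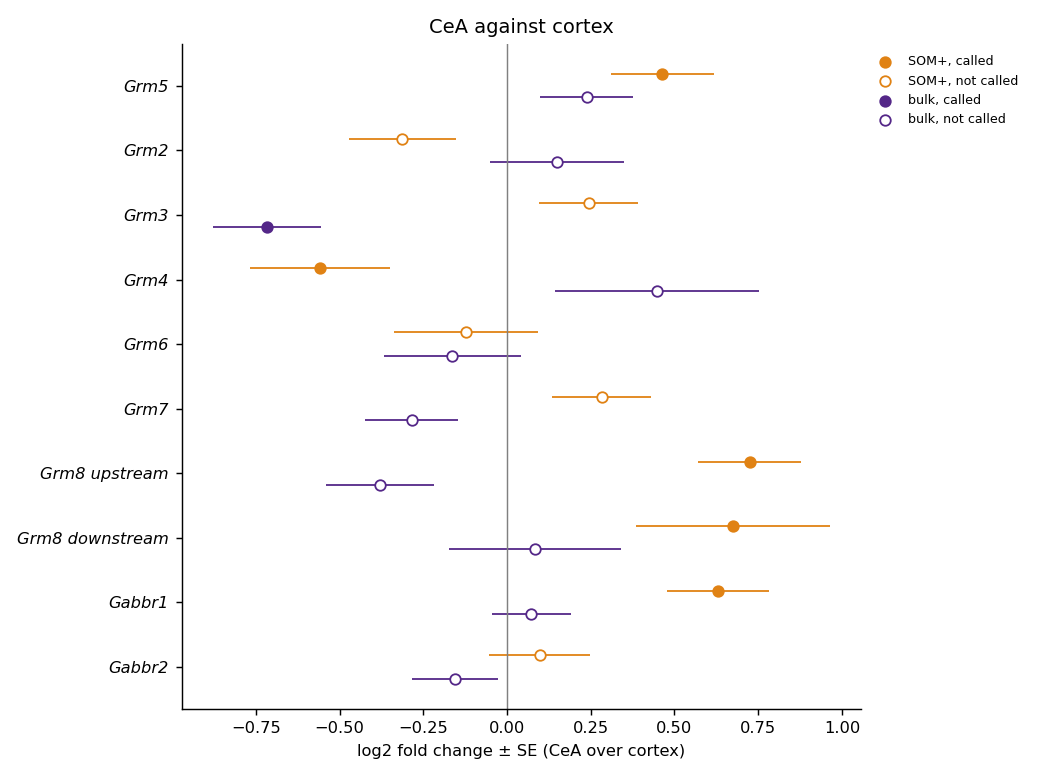
Log2 fold change of promoter level (horizontal axis, CeA over cortex) with its standard error for each receptor window (vertical axis), in SOM+ nuclei (4 against 4 libraries) and in bulk nuclei (5 against 5). Filled circles passed an adjusted p of 0.05; in SOM+ nuclei both Grm8 windows, Gabbr1 and Grm5 lie to the right and Grm4 to the left, and in bulk nuclei Grm3 is filled at -0.72.

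Fear conditioning left no receptor promoter called, and no promoter of any gene (0% of 25157 windows in each region, in the mean of regions and in the interaction, edgeR). At an unadjusted p under 0.05 there were 598 windows in CeA, 288 in cortex, 530 in the mean and 371 in the interaction, and DESeq2 and limma also called 0. The log2 fold changes of the 10 receptor windows lay between -0.46 and 0.48 in CeA and between -0.11 and 0.38 in cortex. The upstream Grm8 window had the smallest p of the 10 in cortex, with 28.2 and 28.4 CPM in fear and 25.0 and 18.5 CPM in control cortex (log2 fold change 0.38 ± 0.22 SE, edgeR adjusted p = 1.00). Over both regions its fold change was 0.32 ± 0.15 SE (edgeR adjusted p = 1.00), the only receptor value under 0.05 before adjustment in the fear comparisons. In the CeA its values overlapped, and the fear library pair was 46.4 and 39.5 CPM against 41.1 and 31.5 CPM in control.

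Gabbr1 and Gabbr2 in the CeA had log2 fold changes of -0.32 ± 0.22 and -0.18 ± 0.22 SE, and Grm5 one of -0.19 ± 0.22 SE. Standard errors over the 10 windows were 0.20 to 0.42 on the log2 scale from 2 against 2 libraries. Differences larger than their standard error, such as Grm6 in CeA (0.48 ± 0.33 SE), were not called either. The lack of a call therefore does not show that no difference of that size exists. Library values did not overlap for 0 of the 10 windows in CeA, against 21.8% of all windows. In the cortex they did not overlap for 2, Grm4 (lower) and the upstream window of Grm8 (higher), against 26.6% of all windows. Over both regions they overlapped at all 10, and 0.648% of all windows had no overlap.

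Knockout of Erbb4 in SOM+ cells likewise left no receptor promoter called in bulk nuclei (0% of 25196 windows in CeA, cortex, their mean and the interaction, edgeR). At an unadjusted p under 0.05 there were 745, 823, 872 and 590 windows, and 0 were called by DESeq2 and limma. KO replicate 2 and WT replicate 1 of both regions went against their labelled sex, so their KO and WT labels may also be at fault. Only WT replicate 1 of each region was labelled female among the bulk libraries, so the sex term set those libraries apart. The fitted KO differences are thus taken largely against WT replicate 2. Grm2 was at 11.3, 19.1 and 17.5 CPM in KO and at 21.4 and 19.9 CPM in WT CeA. It was at 24.8, 20.5 and 14.5 CPM in KO and at 11.4 and 16.7 CPM in WT cortex. The CeA values did not overlap and the cortex values did, with log2 fold changes of -0.47 ± 0.33 and 0.44 ± 0.32 SE. Its interaction was -0.91 ± 0.40 SE (edgeR adjusted p = 0.968), the only receptor value under 0.05 before adjustment in the KO comparisons.

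The downstream Grm8 window was lower in every KO than in every WT library within each region, at 7.64, 6.28 and 5.02 CPM in KO and 9.37 and 9.28 CPM in WT CeA, and at 8.05, 5.04 and 4.88 CPM in KO and 9.72 and 8.23 CPM in WT cortex. Its log2 fold changes of -0.46 ± 0.42 and -0.51 ± 0.42 SE did not pass the test (edgeR adjusted p = 0.999 and 0.945). The cortex value was -0.31 without the 4 libraries that went against their labelled sex. The order of KO and WT values rests on the KO and WT labels of those libraries, which are in doubt. Groups without overlap were found for 2 receptor windows in CeA (28.9% of all windows) and 1 in cortex (10.9%), and over both regions for the downstream Grm8 window alone (0.663% of all windows). The upstream Grm8 window was at 40.1, 51.8 and 72.3 CPM in KO and at 50.7 and 72.2 CPM in WT cortex. Its fitted log2 fold change was -0.49 ± 0.26 SE (edgeR adjusted p = 0.945), although its means were 54.7 CPM in KO and 61.4 CPM in WT cortex. Over the alternatives its log2 fold change was -0.87 to -0.06. Without cortex KO replicate 3, the library at 72.3 CPM, it was called (-0.73, adjusted p = 0.0294); in that fit 985 windows in all were called. Grm4 had a fitted log2 fold change of 0.70 ± 0.52 SE in CeA with labelled sex as a term, although its mean was 7.11 CPM in KO and 7.50 CPM in WT nuclei, and the sign turned to -0.09 without that term.

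**Figure D5:**
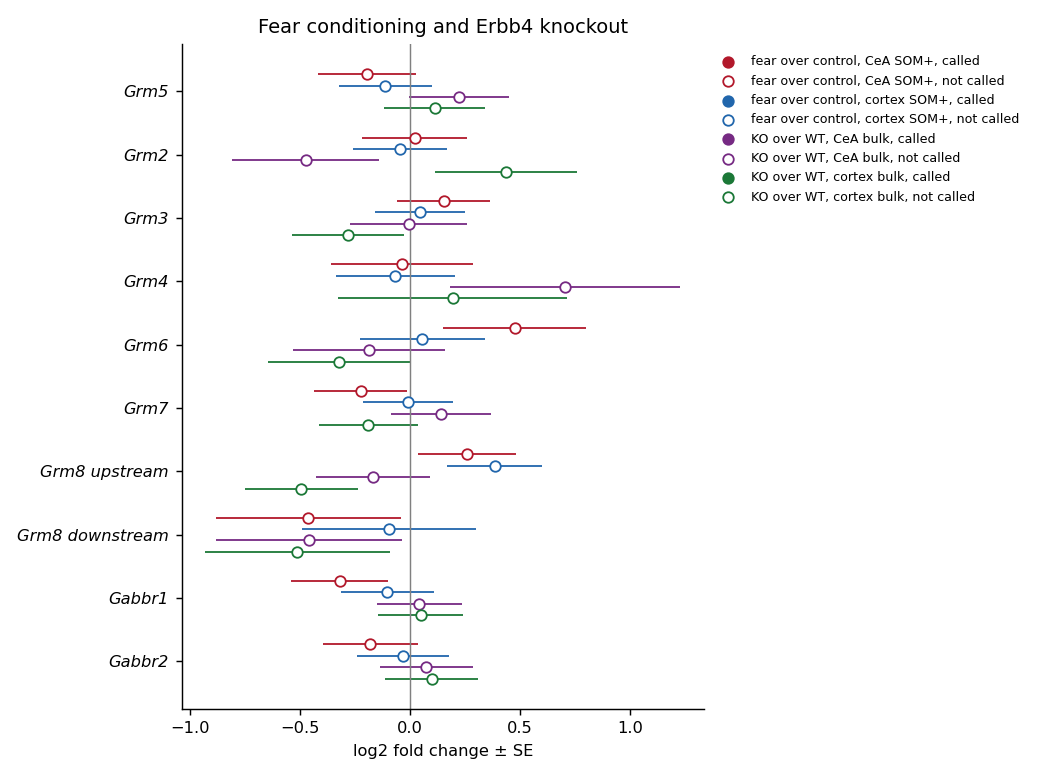
Log2 fold change of promoter level (horizontal axis) with its standard error for each receptor window (vertical axis), for fear over control in SOM+ nuclei and for KO over WT in bulk nuclei of each region. No circle is filled, because no window passed an adjusted p of 0.05; the values lie between -0.51 (downstream Grm8 window, KO cortex) and 0.70 (Grm4, KO CeA).

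The 54 genes of receptor signalling and anchoring that were followed beside the receptors all passed the filter. Between SOM+ control and bulk WT cortex, 18 rose and 16 fell, and between SOM+ control and bulk WT CeA 8 rose and 7 fell, counts near the 62.1% and 23.2% called among all windows. Marker lists moved in the same cortex comparison: 9 of 9 GABAergic markers were higher in SOM+, while 9 of 10 glutamatergic, 7 of 10 astrocyte and 7 of 10 oligodendrocyte markers were lower. Their part in the differences of the signalling genes was not tested. Of 6 GABA-B auxiliary subunits and partners, 0 rose and 4 fell in SOM+ cortex, where 30.6% of all windows fell (median log2 fold change -1.39, against -0.07 for all windows). Among them was Kctd12, which binds the receptor and speeds its desensitization, at 44.6 ± 18.0 CPM in SOM+ control and 182 ± 23.7 CPM in bulk WT cortex (SD, n = 2 each; log2 fold change -2.08 ± 0.23 SE, edgeR adjusted p = 1.13e-09). App, whose product binds the outer domain of the GABA-B receptor, averaged 54.1 CPM in SOM+ control and 205 CPM in bulk WT cortex (-1.95 ± 0.22 SE, edgeR adjusted p = 1.10e-09). In SOM+ CeA, where 9.58% of all windows fell, 3 of the 6 fell. Among them were Kctd12 (-1.11 ± 0.23 SE) and the related subunit Kctd8 (-1.19 ± 0.25 SE, edgeR adjusted p = 5.49e-04 and 6.85e-04). Of 14 alternatives the Kctd12 call was lost in 1 and that of Kctd8 in 0.

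Of 8 synaptic partners of metabotropic receptors, 6 rose and 2 fell in SOM+ cortex, where 31.5% of all windows rose and 30.6% fell. Elfn1, an adhesion protein that recruits mGlu7 to terminals on somatostatin interneurons, was at 59.6 ± 2.08 CPM in SOM+ control and 13.8 ± 4.31 CPM in bulk WT cortex (log2 fold change 2.10 ± 0.25 SE, edgeR adjusted p = 4.46e-09). Ncdn, which encodes neurochondrin, an mGlu5-binding protein, was at 202 ± 15.3 CPM in SOM+ control and 48.8 ± 2.00 CPM in bulk WT cortex (2.05 ± 0.21 SE, adjusted p = 1.67e-10). Of 6 Homer and Shank scaffold genes, which tie group I receptors to the postsynaptic density, 3 rose and 0 fell. Homer2 was at 89.5 ± 7.49 CPM in SOM+ control and 25.5 ± 4.37 CPM in bulk WT cortex (1.80 ± 0.21 SE, edgeR adjusted p = 2.23e-09), and rose in the CeA as well (1.20 ± 0.21 SE, adjusted p = 8.42e-05). The Grm7 and Grm5 promoters themselves stood at -0.55 and -0.01 in the same cortex comparison.

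Gi/o proteins and their effectors (15 genes) were split, with 4 higher and 6 lower in SOM+ cortex, as were the Gq signalling genes (12, with 4 higher and 2 lower) and the RGS regulators, which shorten G protein signals (7, with 1 higher and 2 lower). Of all windows, 31.5% were higher and 30.6% lower in that comparison, so these counts do not set the families apart. Rgs2 was at 60.2 ± 12.3 CPM in SOM+ control and 274 ± 54.7 CPM in bulk WT cortex (-2.19 ± 0.23 SE, edgeR adjusted p = 3.27e-10). In the CeA, Trpc1, a cation channel downstream of Gq, was at 139 ± 27.5 CPM in SOM+ control and 72.8 ± 2.07 CPM in bulk WT nuclei (0.92 ± 0.21 SE, edgeR adjusted p = 0.00112). Cyth2, which binds group I receptors, rose (0.82 ± 0.22 SE, adjusted p = 0.00609), and Adcy1, a cyclase that group II and III receptors can inhibit through Gi/o, fell (-0.91 ± 0.22 SE, adjusted p = 0.00225); of 14 alternatives these calls were lost in 0, 4 and 3 for Trpc1, Cyth2 and Adcy1 in that order.

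Between SOM+ CeA and SOM+ cortex, 15 of the 54 rose and 21 fell, against 48.3% called among all windows (21.1% higher and 27.1% lower). Rgs14 was at 45.2 ± 8.03 CPM in SOM+ CeA and 16.5 ± 2.13 CPM in SOM+ cortex (SD, n = 4 each; edgeR adjusted p = 6.34e-19). Grip1, a PDZ scaffold, also rose (1.17 ± 0.15 SE). Elfn1 was at 26.5 ± 5.50 CPM in SOM+ CeA and 59.7 ± 3.13 CPM in SOM+ cortex (-1.14 ± 0.15 SE, adjusted p = 2.26e-12). Kctd8 (-1.14 ± 0.15 SE) and Pick1, a PDZ protein that binds mGlu7 (-1.07 ± 0.15 SE), fell as well, and these 5 genes were called in all 15 alternatives. Of 8 synaptic partners of metabotropic receptors 2 rose and 6 fell, and of 6 GABA-B auxiliary genes 4 rose and 1 fell. Enrichment and depth were lower in every SOM+ CeA than in every SOM+ cortex library, and their part was not tested.

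Between bulk CeA and bulk cortex 5 of the 54 rose and 11 fell, against 6.90% and 9.98% of all windows. In the same comparison 6 of 9 GABAergic markers were higher and 8 of 10 glutamatergic markers lower in CeA. Astrocyte and oligodendrocyte sums were also lower in every bulk CeA than in every bulk cortex library, and the part of these was not tested. Rgs14 rose here too, at 30.5 ± 3.53 CPM in CeA and 12.5 ± 3.00 CPM in cortex (SD, n = 5 each; 1.31 ± 0.19 SE, edgeR adjusted p = 5.82e-05). Ncdn (0.58 ± 0.13 SE) and the scaffold gene Shank3 (0.38 ± 0.13 SE) rose, although the Shank3 call was lost in 13 of 19 alternatives. Of the Gi/o genes 0 rose and 6 fell, among them Kcnj9 (-0.67 ± 0.13 SE) and Kcnj6 (-0.56 ± 0.16 SE), which encode GIRK channels that GABA-B receptors open, and Adcy1 (-0.59 ± 0.12 SE). Of 19 alternatives the Rgs14 call was lost in 0, those of Kcnj9 and Adcy1 in 3 each, that of Ncdn in 4 and that of Kcnj6 in 6. No gene of the 54 was called for fear conditioning or for the KO.

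Across the 18 libraries, the promoters whose log2(CPM + 1) followed each receptor most closely are given as a description only, since sort and region set most of the spread. Grm3 was followed by Lca5 (Pearson r = 0.987) and Fabp5 (0.983), and Grm8 by Slitrk5 (0.959) and Klhl32 (0.956). Grm2 was followed by Acss2os (0.913) and Lpar2 (0.911), and Grm5 by Agap2 (0.886) and Gria1 (0.868). Gabbr2 was followed by Ngef (0.909) and Map3k4 (0.903), and Gabbr1 by Capza3 and Plcz1 (0.938 each). The latter windows are both on chromosome 6, and their mean levels of 5.40 and 5.35 CPM are close to the highest olfactory receptor median of a library (5.14 CPM). Grm7 was followed by Lancl2 (0.924) and Cxx1b (0.923), Grm4 by Wnk4 (0.890) and Myt1 (0.888), and Grm6 by Itga7 (0.845) and Zar1 (0.829). Among the receptors themselves, Grm3 and the upstream window of Grm8 had the highest r (0.857) and Grm4 and Gabbr1 the lowest (-0.804), followed by Grm2 and Grm3 (-0.755).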

How the data were processed

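The authors deposited raw ATAC-seq counts for promoter windows that reach 1 kb in each direction from a start site (build mm9), 1 column for each of the 18 libraries, not normalized. Picard 1.88, Bowtie2, MACS2, Trimmomatic 0.32 and bcl2fastq 2.16.0.10 are named in the submitters' processing notes. For the counting program, the Tn5 offset and duplicate removal, details were not given in the sources used here. Of 26728 entries, 663 repeated another and were dropped. Peaks and regions outside promoters were not analysed here.

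Counts were tested with edgeR 4.0.16 (R 4.3.3) by quasi-likelihood F tests after TMM scaling and filterByExpr (minimum count 10, minimum total 15). The 3 fits covered the 8 SOM+ libraries (25157 windows), the 10 bulk libraries (25196, labelled sex as a term) and all 18 libraries (25246, labelled sex as a term), with 4, 5 and 9 residual degrees of freedom, for 14 comparisons. In the bulk fit only WT replicate 1 of each region was labelled female, so the sex term marked those libraries. Benjamini-Hochberg adjustment ran over all windows of a comparison, and a window was called at an adjusted p under 0.05. Levels are TMM-scaled CPM, fold changes are on the log2 scale with their standard error, and spreads are SD. Alternatives were DESeq2 1.42.0, limma 3.58.1 with cyclic loess, other scalings, no filter, the sex term, a replicate block, the groups of a comparison only, and each library left out. The sex read from Y-linked promoters, and the fit without the 4 mismatched libraries, were added after seeing the data. The fits were tested on simulated data.

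The receptor genes, the 54 signalling genes and the marker lists were chosen with earlier results of these data known. Signalling genes were named as up to 3 per direction and comparison with the smallest p among those called without overlap of the groups, and the genes of like pattern as the 2 with the highest r, predicted genes and small RNAs left out. Of the signalling genes that this rule names, 1 is not reported here.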

Additional observations from a re-analysis of the deposited data

Results flagged for a closer look

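In the SOM+ CeA libraries, Grm5 was at 47.4 CPM in control replicate 2, while the other 3 libraries lay between 35.0 and 35.5 CPM, a gap that exceeded Dixon's critical value for 4 samples. Of 40 such checks this was the only one past it, and chance flags about 1 in 20.

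The difference between SOM+ control and bulk WT nuclei differed between CeA and cortex, by an interaction term in edgeR, for Grm3 (1.01 on the log2 scale, adjusted p = 0.0169), Grm7 (0.79, adjusted p = 0.0416) and the upstream window of Grm8 (1.28, adjusted p = 0.00529). All 3 rest on 2 libraries per group, and 24.7% of all windows had a called interaction. Within the SOM+ sort the regions differ in promoter enrichment, depth, and GABAergic and vascular marker sums. Within the bulk sort they differ in GABAergic, glutamatergic, astrocyte and oligodendrocyte marker sums. The part of these was not tested.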

How the results depend on the processing

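Over 76 log2 fold changes and their alternatives, 1025 values kept direction and side of the threshold, 131 lost the call, 34 gained it and 11 turned sign. None of the 11 was a called result. They were the downstream Grm8 window for fear in CeA without fear replicate 1 (0.03; range -1.06 to 0.03 with 1 library left out), Grm5 for fear in cortex without fear replicate 1 (0.03; -0.28 to 0.03), Grm4 for KO in CeA without the sex term (-0.09) and with sex from the Y-linked promoters (-0.33), and Gabbr2 between SOM+ regions without CeA fear replicate 1 (-0.07; -0.07 to 0.30). Grm5 between SOM+ and bulk cortex was 0.01 with RLE, 0.01 with DESeq2 and 0.02 with only the groups compared, and -0.11 to 0.10 with 1 library left out (0.10 without SOM+ control replicate 2, 0.04 without bulk WT replicate 1); Grm7 in the mean of regions was 0.03 with a replicate block. The cause was not tested.

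Receptor windows called between SOM+ regions were 3 with DESeq2, 7 with total count scaling and 7 with cyclic loess, against 5. With the 4 libraries against their sex label left out they were 0 (of 1) between bulk regions, 0 (of 1) for SOM+ against bulk in CeA, 4 (of 7) in the mean and 0 (of 3) in the interaction, from fewer samples. With 1 library left out they ranged from 0 to 1 for KO in cortex, 3 to 6 between SOM+ regions, 0 to 3 between bulk regions, 0 to 1 for SOM+ against bulk in CeA, 4 to 7 in cortex, 4 to 7 in the mean and 1 to 4 in the interaction, and stayed at 0 for the other comparisons.

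No label ties replicate numbers to a shared animal or batch. Reads at Y-linked promoters did give the same sex in CeA and cortex for each condition and replicate number. In the SOM+ groups replicate 1 is labelled male and replicate 2 female, so the replicate block and the sex term are the same fit there, and same-numbered libraries had correlations of 0.0052 to 0.245; with the bulk libraries included the range was -0.34 to 0.43. Between bulk CeA and bulk cortex they were 0.40 for WT and -0.22, 0.26 and -0.00043 for KO replicates 1, 2 and 3. Whether the regions share animals was not tested. The numbers were not taken as pairs; the replicate block gave 4 calls (of 7) in the mean of SOM+ against bulk.

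Over all windows, 1 library left out gave up to 985 calls for KO in cortex, 125 in the KO mean and 4 for fear, 889 to 6991 between bulk regions (645 to 5201 otherwise; 4253 as reported), 2321 to 3263 for SOM+ against bulk in CeA (1559 to 6625; 5865) and 3942 to 4766 in the interaction (2612 to 8004; 6229). Total count scaling moved the share of calls that were higher to 56.7% between bulk regions (40.9% with TMM), 40.7% for SOM+ against bulk in CeA (58.8%), 39.0% in the mean (50.0%) and 49.6% in the interaction (38.4%; 53.8% with cyclic loess), and the median of all windows to -0.22 in CeA and -0.31 in cortex for SOM+ against bulk, 0.13 between bulk regions and 0.13 for KO in cortex. Depth limits Grm4 (14 to 173 reads) and the downstream Grm8 window (22 to 71 reads) most.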
